A study of Homo sapiens with 8 samples.

Results

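DNA glycosylases are the enzymes that open base excision repair, the pathway that replaces single damaged bases. A set of 10 glycosylase genes, NEIL1, NEIL2, NEIL3, OGG1, NTHL1, MUTYH, UNG, SMUG1, TDG and MPG, was examined on arrays of cisplatin-resistant and cisplatin-sensitive ovarian cancer spheroids, among 15931 genes measured. The 10 genes belong together by function, and the set was put together with the contrast between these arrays in view. NEIL3 led the set because of its difference in signal between these same arrays, so the values of the members are given as a description, with no test. Each was measured by 1 probeset that the annotation assigns to that gene alone, and all 10 passed the filter on low signal.

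The arrays fell into 2 groups of 4. The parental line OVCAR-8 is a human ovarian adenocarcinoma line that had not been put through stepwise cisplatin exposure. OVCAR-8R, named OVCAR-8C or OVCAR8-C in the sample labels, is its resistant derivative, raised in rising steps of cisplatin that ended at 5 μM, and it stayed resistant once the drug was withdrawn. Both were grown in DMEM with 10% FBS and antibiotics and formed into spheroids of about 300 μm in agarose molds. Only 1 resistant line was compared with 1 parental line, so a feature of resistance and any other difference that arose between the lines cannot be told apart. Replicates are titled as biological, without saying at which step they separate, so part of their spread may be technical.

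Signals are RMA values, which correct background, equalise the distributions of the arrays and summarise the probes of a probeset, and are given on the log2 scale. Differences are OVCAR-8R minus OVCAR-8, each taken between means and followed by the standard error from limma in parentheses, with 4 arrays in each line. Genes outside the family are called where the lines differ 2-fold or more and the p-value, adjusted by Benjamini-Hochberg across the probesets tested, is under 0.05. RNA measured on whole spheroids does not separate fewer expressing cells from less RNA per cell. All 8 arrays had a median log2 signal of 6.67 to 6.73. Of 12 markers of ovarian carcinoma, 6 were higher in OVCAR-8R, 1 was lower and 5 were not called, where 16.7% of all genes were called. The 6 ran from 1.90 (KRT18) to 4.45 (KRT7), with PAX8 at 3.77, and the lower gene was MECOM at -2.45. The lines thus differ widely in such markers. MECOM in OVCAR-8R was the only mean of these markers in the lowest quartile of signal. Among measured markers of blood and vessel cells, the leukocyte genes PTPRC and CD3E lay in the lowest quartile of either line, PECAM1, VWF and CDH5 did not pass the test, and CD68 was higher in OVCAR-8R, by 2.52 (0.08).

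A glycosylase flips an altered base out of the helix and cuts it from its sugar. The abasic site left behind is incised by APEX1 or by the glycosylase itself, the gap is filled by a polymerase, and a ligase seals the strand. The NEIL enzymes, OGG1 and NTHL1 act on oxidised bases, MUTYH on adenine paired with oxidised guanine, UNG, SMUG1 and TDG on uracil or thymine where cytosine belongs, and MPG on alkylated bases. NEIL3 differs from the others in that it is made mainly in dividing cells, prefers open strands, and can release abasic-site and psoralen crosslinks between strands when replication forks meet at them. Cisplatin itself binds purines and links neighbouring bases, mostly within a strand.

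The sequence just upstream of NEIL3 and TDG is shown because these are the genes of the family with the largest differences. Both are the 250 bases before the RefSeq start in GRCh38.p14, on the plus strand, at chr4:177309624-177309873 for NEIL3 and chr12:103965622-103965871 for TDG. Capitals mark the motifs that were searched on both strands. These were the cell cycle element called CHR (TTTGAA or TTCGAA), which is known from genes of the late cell cycle, the CCAAT box, the GC box (GGGCGG) and the E2F motif (TTTCCCGC, TTTCGCGC, TTTGCCGC or TTTGGCGC).
NEIL3: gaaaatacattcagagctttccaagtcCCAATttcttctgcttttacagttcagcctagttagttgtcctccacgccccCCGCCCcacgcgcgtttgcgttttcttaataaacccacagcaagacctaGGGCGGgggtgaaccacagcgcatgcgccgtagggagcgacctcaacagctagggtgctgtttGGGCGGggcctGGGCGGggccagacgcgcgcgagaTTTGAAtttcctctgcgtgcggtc
TDG: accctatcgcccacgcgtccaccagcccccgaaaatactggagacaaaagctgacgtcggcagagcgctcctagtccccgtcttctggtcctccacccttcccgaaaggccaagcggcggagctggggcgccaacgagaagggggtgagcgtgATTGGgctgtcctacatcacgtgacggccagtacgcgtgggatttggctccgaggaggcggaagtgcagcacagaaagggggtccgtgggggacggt

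The NEIL3 window held TTTGAA at bases -24 to -19 from the start, CCAAT at -223 to -219 and 4 GC boxes, the nearest at -48 to -43. In the TDG window only a CCAAT box on the minus strand was found, at -97 to -93. RefSeq promoters, counted from 250 bases before to 50 after the start, were given for 8 of the 10 genes, without NEIL2 and SMUG1. CHR letters were present in 1 of the 8, NEIL3, and in 16.4% of 35114 promoters of all genes. CCAAT occurred in 6 of 8 (NEIL3, OGG1, MUTYH, UNG, TDG and MPG), against 34.6% of all promoters, and the GC box in 6 of 8 (NEIL1, NEIL3, OGG1, NTHL1, UNG and MPG), against 45.0%. None of the 8 held an E2F motif with these letters, which occur in 3.31% of promoters. The GC content ran from 56.3% in MUTYH to 77.0% in MPG, beside a median of 58.7% for all promoters and 58.7% in NEIL3 itself. These matches describe the letters and not the binding of a factor.

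NEIL3 had by far the lowest signal in OVCAR-8R relative to OVCAR-8 within the family. Its log2 signal on the OVCAR-8R arrays 1 to 4 was 4.37, 4.47, 4.53 and 4.27, and on the OVCAR-8 arrays 9.34, 9.57, 9.46 and 9.44. On the linear scale these are intensities of 19.3 to 23.2 and of 648 to 761. Every OVCAR-8R array lay below every OVCAR-8 array, with an empty interval of 4.80 log2 units between the lines. The difference was -5.04 (0.08), or 32.9-fold. The OVCAR-8R mean of 4.41 ± 0.12 (SD, n = 4) lies in the lowest quartile of that line, which ends at 5.11, so the size is best read as a lower bound. The OVCAR-8 mean was 9.45 ± 0.10 (SD, n = 4). By measured difference, SC5D, NRN1, MID1, IRS4, LIN28B and UBB were the only genes of the 15931 with a larger decrease, and with its size a lower bound the exact place of NEIL3 among them is not determined.

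TDG, which removes thymine mispaired with guanine and the oxidised forms of 5-methylcytosine, had the next largest difference in the family. Its log2 signal was 6.89, 6.63, 6.58 and 6.65 on the OVCAR-8R arrays 1 to 4 and 7.72, 8.18, 7.72 and 8.35 on the OVCAR-8 arrays. The lines did not overlap, and the gap between the nearest arrays was 0.83. The OVCAR-8 arrays formed a low pair, 1 and 3, and a high pair, 2 and 4, so that the SD was 0.32 in OVCAR-8 and 0.14 in OVCAR-8R. The deposited TDG intensity was identical on OVCAR-8 arrays 1 and 3, at 211.07. Identical values occurred in 8 of 33297 probesets between these arrays and in 7 between OVCAR-8 arrays 1 and 2. The difference of the means was -1.30 (0.15), a factor of 2.47, and it ranged from -1.40 to -1.19 when any single array was left out. The spread of TDG within the lines, a pooled SD of 0.25, was above that of 95.1% of all genes, whose median was 0.13. NEIL3 had a pooled SD of 0.11. RefSeq lists pseudogene copies of TDG (TDGP1), UNG (UNGP1, UNGP2 and UNGP3) and SMUG1 (SMUG1P1), and whether their transcripts add to these probesets was not tested.

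Beside NEIL3 and TDG, the other 8 members differed by less than 2-fold, in either direction. Of the 10, then, 2 passed the thresholds applied to all genes, both lower, where 16.7% of all genes passed in either direction, 8.37% lower and 8.37% higher. With the adjusted p alone and no demand on size, 5 members passed, 3 higher and 2 lower, against 57.6% of all genes. The lines were fully separated in 5 members, against 56.8% of all genes. The members were chosen on this contrast, and nothing is read from these shares. The median difference over the 10 members was 0.01, that of all genes -0.01.

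**Figure D1:**
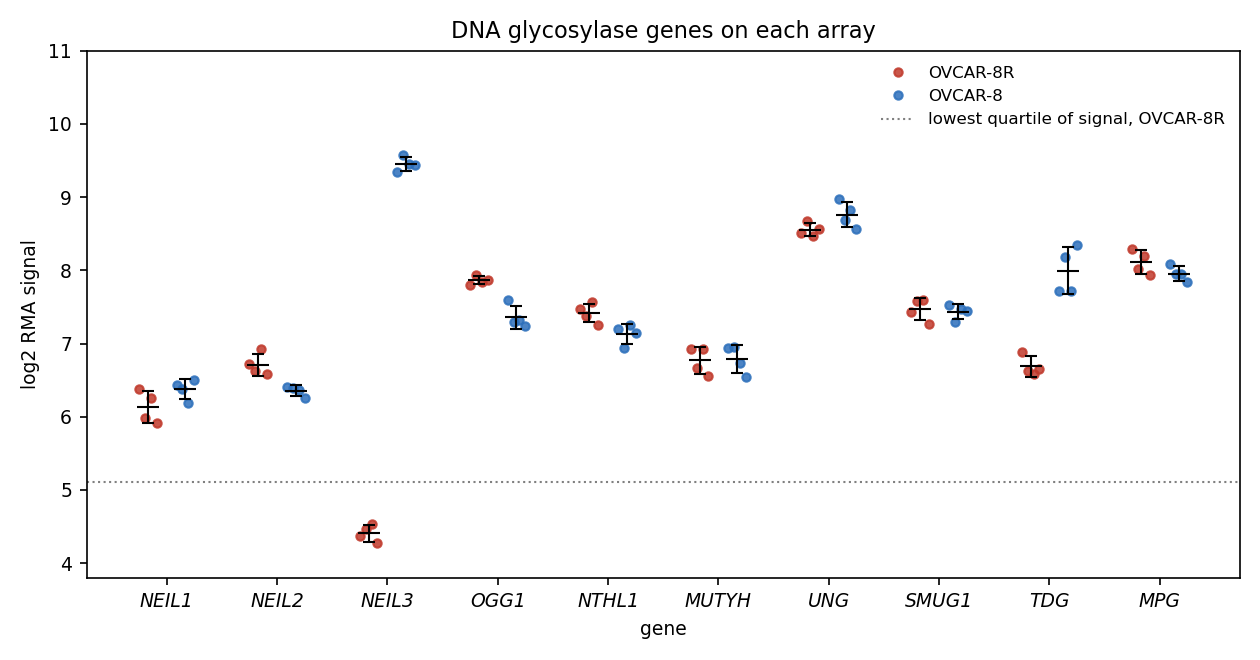
Log2 RMA signal of the 10 glycosylase genes (x axis) on each array, with OVCAR-8R in red, OVCAR-8 in blue and black marks for the mean and SD of the 4 arrays. NEIL3 in OVCAR-8R is the only group below the dotted line, the upper bound of the lowest quartile of signal in OVCAR-8R at 5.11.

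NEIL1 and NEIL2 differed between the lines by far less than NEIL3 and in opposite directions. NEIL1, which removes oxidised pyrimidines and ring-opened purines ahead of the fork, read 6.38, 5.99, 6.25 and 5.92 on the OVCAR-8R arrays and 6.44, 6.38, 6.18 and 6.50 on the OVCAR-8 arrays. The lines overlapped, and the difference was -0.24 (0.12). NEIL2, which prefers bases in bubbles such as those of transcription, read 6.72, 6.62, 6.92 and 6.58 against 6.41, 6.40, 6.37 and 6.25. The lines did not overlap, with OVCAR-8R higher by at least 0.17 between the nearest arrays, and the difference was 0.35 (0.09).

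OGG1 and NTHL1, glycosylases of oxidised bases with another fold, were slightly higher in OVCAR-8R. OGG1, which removes 8-oxoguanine paired with cytosine, read 7.81, 7.94, 7.85 and 7.87 on the OVCAR-8R arrays and 7.59, 7.29, 7.32 and 7.24 on the OVCAR-8 arrays. The lines did not overlap, and at 0.51 (0.09), a factor of 1.42, it was the largest positive difference of the family. NTHL1, which acts on oxidised pyrimidines, read 7.47, 7.38, 7.56 and 7.26 against 7.19, 6.94, 7.26 and 7.15, with a difference of 0.28 (0.10). The lowest OVCAR-8R array and the highest OVCAR-8 array of NTHL1 are practically level. MUTYH, the partner of OGG1 that removes adenine opposite 8-oxoguanine, read 6.93, 6.67, 6.93 and 6.56 against 6.94, 6.95, 6.73 and 6.55. Its lines covered nearly the same range, and the difference was -0.02 (0.12).

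UNG, SMUG1 and MPG had small differences, the largest of them that of UNG at a factor of 1.15. UNG, which clears uracil behind the replication fork and from deaminated cytosine, read 8.51, 8.67, 8.47 and 8.56 on the OVCAR-8R arrays and 8.98, 8.69, 8.82 and 8.57 on the OVCAR-8 arrays. With overlapping lines, its difference was -0.21 (0.10). SMUG1, which removes uracil and 5-hydroxymethyluracil, read 7.44, 7.58, 7.60 and 7.27 against 7.53, 7.29, 7.47 and 7.45, a difference of 0.03 (0.09). MPG, the glycosylase of alkylated purines and hypoxanthine, read 8.29, 8.02, 8.20 and 7.94 against 8.08, 7.96, 7.95 and 7.84. Its lines overlapped too, and the difference was 0.16 (0.09). MBD4, a further thymine glycosylase that is not among the 10, had a difference of -0.04 (0.14).

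Part of the spread within OVCAR-8R followed the arrays. For 5 members, NEIL1, NEIL2, NTHL1, MUTYH and MPG, arrays 1 and 3 were both above arrays 2 and 4, and for OGG1 and UNG both were below. Over all genes, 33.8% showed the first order and 33.8% the reverse. Deviations from the line mean over all genes correlated at 0.43 between arrays 1 and 3 and at 0.49 between arrays 2 and 4. Across these pairs the correlations were -0.77 to -0.68, so the grouping is not limited to the members. NEIL3 showed neither order. With arrays 1 and 3 alone, the TDG difference was -1.26, and with arrays 2 and 4 alone it was -1.35. NEIL3 stayed between -5.08 and -4.99 with either pair. The small differences moved more. MUTYH had 0.14 with arrays 1 and 3 and -0.18 with arrays 2 and 4, and NEIL1 had -0.06 and -0.42.

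**Figure D2:**
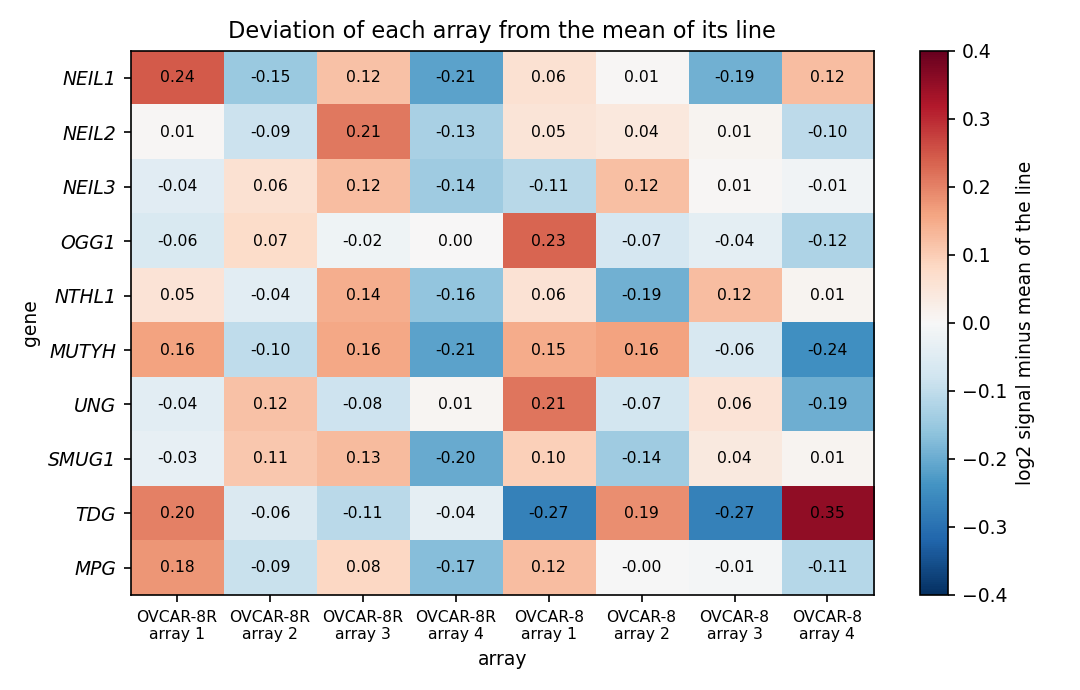
Log2 signal of each glycosylase gene (rows) on each array (columns) minus the mean of its line, in log2 units, red for above and blue for below. The largest deviation is that of TDG on OVCAR-8 array 4, at 0.35, and MUTYH in OVCAR-8R shows the common order, with arrays 1 and 3 at 0.16 and arrays 2 and 4 at -0.10 and -0.21.

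The later steps of base excision repair were taken from a list of partner genes, 29 of which were measured. Of the 29, 4 were lower in OVCAR-8R, 1 was higher and 24 did not pass, with a median difference of -0.35. Those lower were RFC3, PARP1, PARG and TDP1, and the higher gene was POLD4. Over all genes, 16.7% passed in either direction and 8.37% were lower. At any size of difference, 17 partners were lower and 2 were higher at an adjusted p under 0.05 (limma). Of all 15931 genes, 4776 were lower and 4396 higher at that level, 57.6% in either direction.

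Among genes that process abasic sites and strand ends, TDP1, which frees DNA ends from trapped topoisomerase, read 8.65, 8.68, 8.50 and 8.66 on the OVCAR-8R arrays and 9.70, 9.67, 9.62 and 9.56 on the OVCAR-8 arrays. It fell by 1.02 (0.07, adjusted p = 1.68e-06 from limma), just over 2-fold. APEX1, the main nuclease at abasic sites, had a difference of 0.10 (0.06) and HMCES, which shields abasic sites in exposed strands, one of 0.11 (0.07). APTX, which removes stalled ligase products, had -0.60 (0.08) and missed the 2-fold threshold. The other genes of this step, APEX2 and APLF, had -0.16 and -0.05.

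Short-patch repair showed its largest differences in poly(ADP-ribose) metabolism. PARP1, which senses the broken strand, read 9.69, 9.63, 9.76 and 9.80 in OVCAR-8R and 11.12, 10.94, 11.07 and 11.07 in OVCAR-8. It fell by 1.33 (0.07, adjusted p = 3.08e-07 from limma), with more than 1 log2 unit between the nearest arrays of the lines. PARG, which removes the polymer that PARP1 makes, fell by 1.23 (0.08, adjusted p = 8.34e-07 from limma). The gap-filling polymerase gene POLB, the ligase gene LIG3 and PARP2 had differences of -0.44 (0.10), -0.53 (0.08) and -0.40 (0.09), each under 2-fold. XRCC1, the scaffold that holds these enzymes, had a difference of -0.03 (0.11), and POLL one of -0.08.

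Long-patch repair shares its enzymes with replication. RFC3, a clamp loader subunit, read 9.80, 9.86, 9.91 and 9.92 in OVCAR-8R and 11.75, 11.82, 11.85 and 11.91 in OVCAR-8, and fell by 1.96 (0.07, adjusted p = 1.37e-08 from limma). POLD4, the smallest subunit of polymerase delta, read 9.42, 9.31, 9.29 and 9.24 against 7.75, 7.84, 7.84 and 7.86, and rose by 1.49 (0.07, adjusted p = 8.85e-08 from limma). FEN1, which trims the displaced flap, the sliding clamp gene PCNA and the ligase gene LIG1 had differences of -0.35, -0.53 and 0.12. The remaining long-patch genes lay between -0.86 (RPA2) and 0.72 (RFC2) and did not pass. The calls of TDP1 and PARG ended when the test asked for more than 2-fold (treat), and that of TDP1 also with cyclic loess scaling, without OVCAR-8R replicate 3, without OVCAR-8 replicate 1 and with OVCAR-8R arrays 2 and 4 only.

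**Figure D3:**
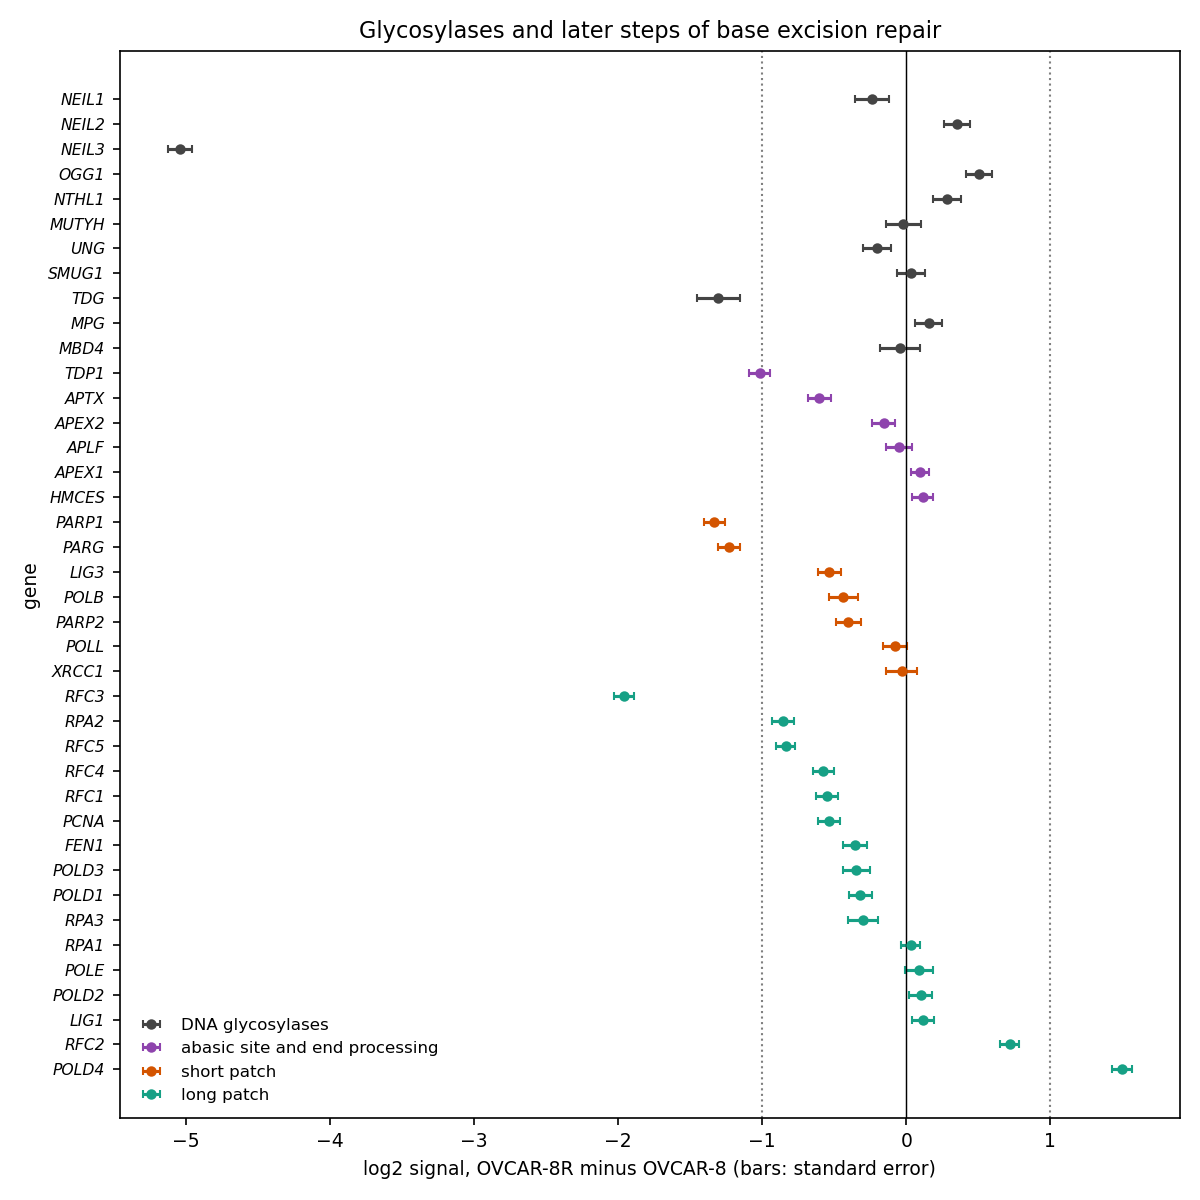
Difference in log2 signal, OVCAR-8R minus OVCAR-8, on the x axis, for the 10 glycosylase genes with MBD4 and 29 partner genes on the y axis, colored by step, with standard errors and dotted lines at 2-fold. NEIL3, which led the set because of its difference, is at -5.04, and the partners run from -1.96 (RFC3) to 1.49 (POLD4).

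Several bases that glycosylases remove are made by enzymes. TET1, which oxidises 5-methylcytosine toward the forms that TDG cuts out, read 5.94, 5.91, 5.98 and 6.07 in OVCAR-8R and 8.67, 8.63, 8.83 and 8.88 in OVCAR-8. It fell by 2.78 (0.08, adjusted p = 4.56e-09 from limma). Neither TET2 nor TET3 passed, at -0.66 (0.10) and -0.01 (0.06). Among cytosine deaminases, which turn cytosine into uracil, APOBEC3G rose by 1.33 (0.19, adjusted p = 0.000224 from limma), a call that ended with treat. APOBEC3B, the deaminase gene often linked to uracil in tumor DNA, had 0.71 (0.10), under 2-fold. Of 9 genes of this list that passed the filter, 1 was higher, 1 was lower and 7 did not pass. Over all genes, 16.7% passed in either direction. APOBEC1 and APOBEC4 were left out for low signal. Neighbouring APOBEC3 genes are similar in sequence, and their probesets may share signal.

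The nucleotide pool enzymes destroy damaged nucleotides before they enter DNA. None of their 7 measured genes passed, where 16.7% of all genes did. NUDT1, which clears oxidised dGTP, had a difference of -0.11 (0.09), and DUT, which keeps uracil out of DNA, one of -0.49 (0.08). NUDT5 and DCTPP1 had -0.84 and -0.88. At an adjusted p under 0.05 (limma) and any size, 1 was higher and 3 were lower, beside 57.6% of all genes. The same number (4) had an unadjusted p under 0.05 (limma), and the methods' t-test called 0.

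NEIL3 led the set because of its difference on these arrays, so its larger size beside other lists follows largely from that choice. Genes of the replisome at which NEIL3 acts on crosslinks are given as a description. TRAIP, the ubiquitin ligase that marks the helicase there, did not pass, at -0.37 (0.07). In the CMG helicase, CDC45 read 8.62, 8.55, 8.55 and 8.57 in OVCAR-8R and 10.36, 10.13, 10.31 and 10.27 in OVCAR-8, and fell by 1.69 (0.07, adjusted p = 5.12e-08 from limma). GINS2 fell by 1.02 (0.08, adjusted p = 3.24e-06 from limma), a call lost with treat, array weights, cyclic loess, without OVCAR-8R replicate 1 and with OVCAR-8R arrays 2 and 4 only. The MCM subunits lay between -0.96 (MCM3) and 0.32 (MCM4). Of 12 genes, 2 were lower, none was higher and 10 did not pass, with a median of -0.31. The share that passed equals the 16.7% of all genes in either direction, while 8.37% of all genes were lower.

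NEIL3 is a gene of dividing cells, so S phase and mitosis genes are given beside it. Of 26 such genes, 3 were lower, 1 was higher and 22 did not pass, where 16.7% of all genes passed in either direction and 8.37% were lower. Their median difference was -0.47, that of all genes -0.01. CENPF, a kinetochore protein gene, fell by 1.64 (0.08, adjusted p = 1.50e-07 from limma), the repressor gene E2F8 by 1.15 (0.11) and the mitotic kinase gene CDK1 by 1.08 (0.13). UHRF1, which guides maintenance of DNA methylation, passed with OVCAR-8R higher by a factor of 2, just at the threshold, and lost its call in 11 of 23 alternatives. MKI67, the common proliferation marker, read 9.35, 9.61, 9.44 and 9.54 in OVCAR-8R and 9.52, 9.59, 9.81 and 9.88 in OVCAR-8, a difference of -0.22 (0.10). At any size, 17 were lower and 4 were higher at an adjusted p under 0.05 (limma). Of all 15931 genes, 4776 were lower and 4396 higher at that level, 57.6% in either direction. The largest decrease in the list was that of CENPF, and the part of these genes in the difference of NEIL3 was not tested. The calls of E2F8 and CDK1 ended with treat and with OVCAR-8R arrays 2 and 4 only, and that of CDK1 also with cyclic loess and without OVCAR-8R replicate 1.

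**Figure D4:**
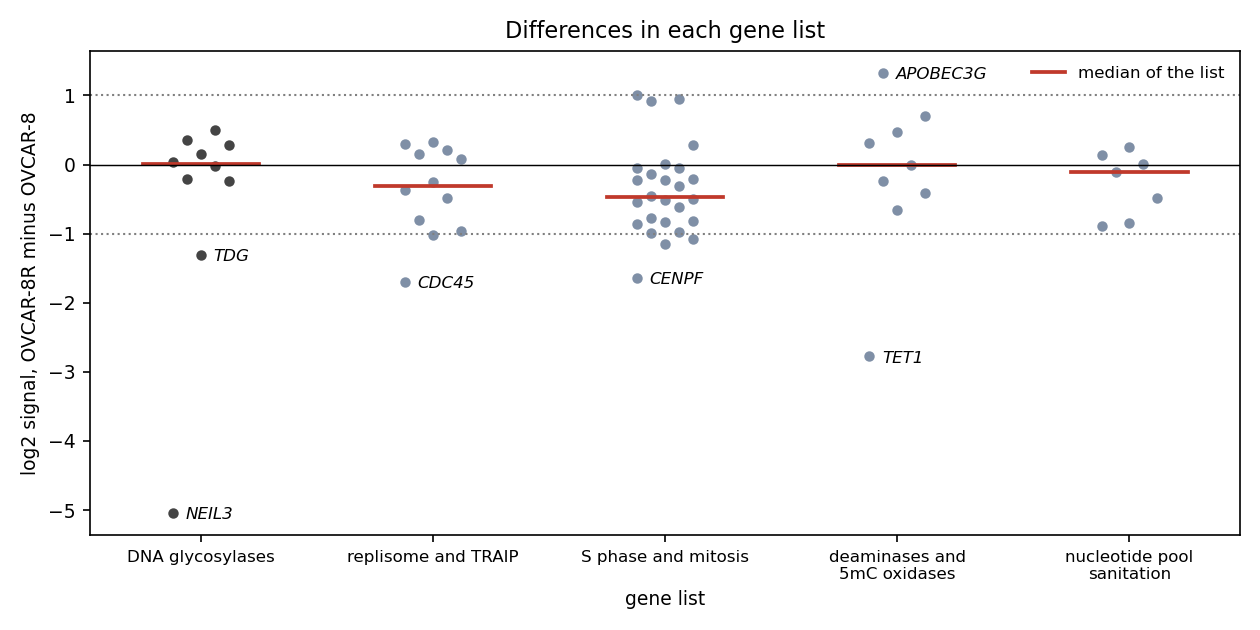
Difference in log2 signal, OVCAR-8R minus OVCAR-8 (y axis), of each gene in 5 lists (x axis), with the median of each list in red and dotted lines at 2-fold. NEIL3, which led the set because of its difference, lies below every gene of the other lists, of which TET1 at -2.78 comes nearest.

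The measured genes nearest to NEIL3 were taken in chromosome order, and their distances from it were not measured. VEGFC, a growth factor gene of lymphatic vessels, is the nearest measured gene on one side in RefSeq order (GRCh38.p14). It read 8.70, 8.87, 8.61 and 8.80 in OVCAR-8R and 6.96, 7.28, 7.19 and 7.06 in OVCAR-8, and rose by 1.62 (0.09, adjusted p = 3.93e-07 from limma). TENM3, the nearest on the other side, had a difference of 0.93 (0.12), under 2-fold. DCTD, the deaminase gene of dCMP and the third measured gene on that side, rose by 1.68 (0.08, adjusted p = 1.03e-07 from limma). Of the 5 measured genes on each side, 2 were higher, none was lower and 6 did not pass. The remaining 2, ASB5 and CIBAR1P2, were left out for low signal. Over all genes, 8.37% were called higher and 8.37% lower, so nothing is read from these counts. Genes without a probeset of their own in the annotation are not in this order.

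Around TDG, no measured neighbour was called, where 16.7% of all genes were called in either direction. HSP90B1, a chaperone of the endoplasmic reticulum, and GLT8D2 lie next to it and had differences of -0.14 (0.07) and -0.96 (0.14). The other genes that passed the filter lay between -0.30 (HCFC2) and 0.84 (EID3). Of the 10 neighbours, 7 passed the filter on low signal. Of these, limma gave 5 an adjusted and an unadjusted p under 0.05 at less than 2-fold, while the methods' t-test called 0. Over all genes, 57.6% had an adjusted p under 0.05 (limma) at any size.

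**Figure D5:**
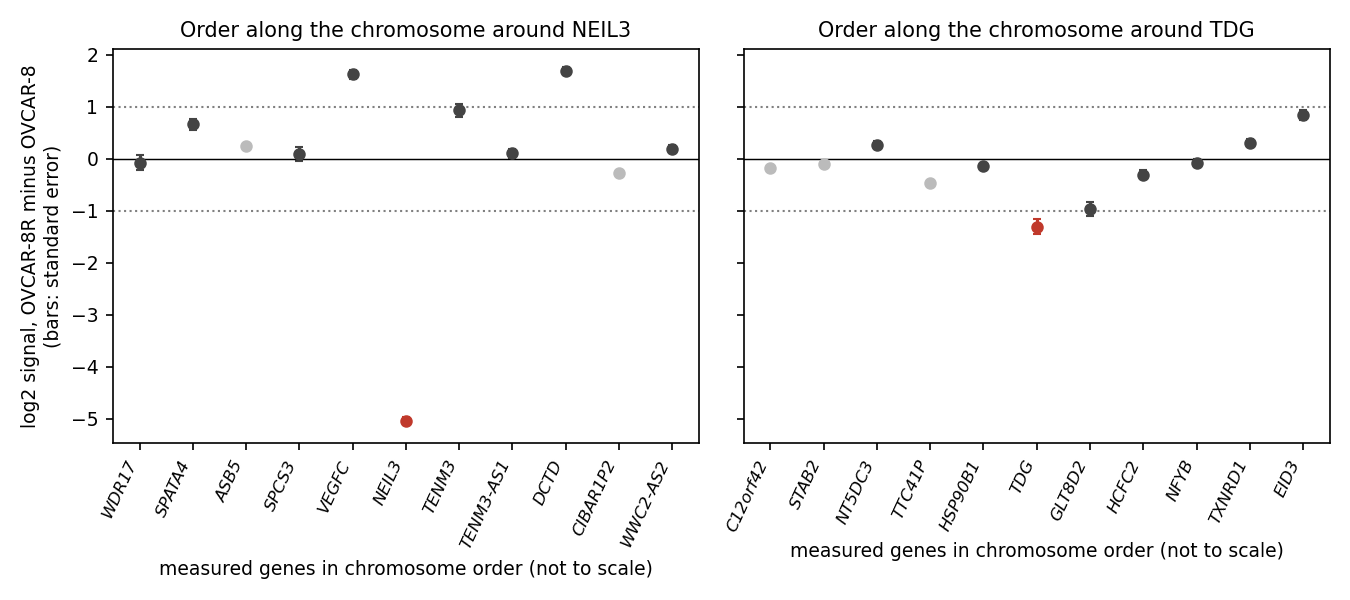
Difference in log2 signal, OVCAR-8R minus OVCAR-8 (y axis), of NEIL3 and TDG (red) and the 5 nearest measured genes on each side in chromosome order (x axis, not to scale), with standard errors and dotted lines at 2-fold. Gray points did not pass the filter on low signal. In this order, which gives no distances, NEIL3 at -5.04 stands between VEGFC at 1.62 and TENM3 at 0.93.

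The genes whose 8 signals, each centred on its own mean, lay nearest to those of NEIL3 were UBB, HOXD10, GOLIM4, HEY1 and LIN28B. Their root mean square distances from NEIL3 were 0.11, 0.18, 0.19, 0.22 and 0.23 log2 units over 8 arrays. UBB encodes ubiquitin, HOXD10 a homeobox factor, GOLIM4 a Golgi membrane protein, HEY1 a Notch target repressor and LIN28B an RNA-binding protein that acts on the let-7 microRNAs. Their differences lay between -5.28 (LIN28B) and -4.85. The difference between the lines is far larger than the spread within them, so this distance mainly picks genes with a fall of similar size. For TDG the nearest were PI15, MIR218-1, LRCH2, PRKCB and PRKAR2B, at distances of 0.13 to 0.16 and differences of -1.40 to -1.19.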

How the data were processed

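The authors isolated total RNA from spheroids with Trizol, hybridized it to Affymetrix Human Gene 1.0 ST arrays and summarised them with the RMA method of Expression Console (version 1.1). The deposited values are 1 linear intensity per probeset and array, for 33297 probesets and 8 arrays, and log2 was taken here. RMA equalises the arrays and removes any overall difference in signal. There is no read depth for arrays, and precision is limited by having 4 per line. The annotation assigns 1 gene to 19460 probesets, 19429 of them found by identifier in RefSeq (GRCh38.p14), several to 1754 and none to 12083.

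Probesets with means in the lowest 25% in both lines (log2 5.11 in OVCAR-8R, 5.16 in OVCAR-8) were left out, and 25628 stayed. A gene with several probesets is given by that with the highest mean. Differences were fitted in R (version 4.3.3) using limma (version 3.58.1), by lmFit followed by eBayes, across all probesets kept, without a replicate block, and tested on simulated data first. The series text names an unadjusted p, an FDR and a fold change, and the methods Student's t-test, which was run as an alternative.

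Members and lists were chosen with earlier results of these data known. Named are all members, the called genes of each list, genes that define a step, the 5 nearest profiles and the 5 nearest measured genes on each side of NEIL3 and TDG. Members of lists that did not pass and are named were chosen for their role or as the ends of a range. Other filters, tests, thresholds and scalings, a replicate block and the omission of each array were tried.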

Additional observations from a re-analysis of the deposited data

Results flagged for a closer look

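Among 76 groups of 4 arrays, 2 for each of 38 genes (the members, the called genes of the lists and the neighbours that passed the filter), 5 held an array set apart from the other 3 by most of the group's range (Dixon's test), the ratio given here being the gap to the nearest array over that range. Chance marks about 1 group in 20. None was a glycosylase gene. For UHRF1, OVCAR-8 array 1 was high at 8.96, next to 8.72 (ratio 0.935), and OVCAR-8R array 4 was low at 9.68, next to 9.80 (ratio 0.860). Among the neighbours of NEIL3, SPATA4 was high on OVCAR-8 array 2 (ratio 0.832), SPCS3 on OVCAR-8 array 4 at 11.23, next to 10.67 (ratio 0.831), and TENM3-AS1 on OVCAR-8R array 1 (ratio 0.955).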

How the results depend on the processing

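The NEIL3 difference lay between -5.08 and -4.99 in the alternatives, the range also found when each array was left out in turn. Other filters, tests and thresholds and the replicate block cannot change this difference of means. With a gap of 4.80 between the lines, leaving out arrays could not reverse its direction. TDG stayed between -1.40 and -1.19. None of the called genes among the members, partners and other lists changed direction. With treat, 1 glycosylase gene (NEIL3), 3 partners, 3 genes of the other lists and 1475 of all genes were called, in place of 2, 5, 8 and 2668. With the adjusted p alone these were 5, 19, 41 and 9172, and with OVCAR-8R arrays 2 and 4 only, 5 genes of the other lists were called. Leaving out each array in turn gave 2 glycosylase genes throughout, 4 to 5 partners, 6 to 8 genes of the other lists and 2628 to 2714 of all genes. Deviations of same-numbered arrays correlated at 0.24, -0.23, -0.03 and 0.38, and the best match had the same number for OVCAR-8R replicates 1 and 4 only. These values cannot settle whether the numbers mark pairs, since OVCAR-8R deviations follow the grouping of arrays 1 and 3 against 2 and 4. With a replicate block the NEIL3 difference was -5.04, and 2, 5, 8 and 2668 genes were called among members, partners, other lists and all genes, and no call among the members, partners and other lists changed. The methods' t-test gave 2667 genes after Benjamini-Hochberg adjustment and 2662 at an unadjusted p under 0.01. The alternatives for the other lists, the OVCAR-8R pairs of arrays and that threshold were chosen after seeing the data. Where a mean lies near background, as NEIL3 in OVCAR-8R, signal limits the size of the difference.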
